A study of Mus musculus with 10 samples.

Results

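The genes described here encode the cytosolic translation elongation factors of the mouse: Eef1a1 and Eef1a2, Eef1b2, Eef1d and Eef1g, Eef2, and Eif5a and Eif5a2, together with Eef2k, the kinase that acts on eEF2. They were chosen by name, as the rows of the footprint table whose Ensembl identifier maps to one of these symbols, and all 9 were found among the 22373 genes of the table. All 9 passed the filter on low counts that left 13484 genes for testing. Ribosome-protected mRNA fragments (RPFs, or footprints) were sequenced from neocortex of wild-type CD-1 mice at embryonic stages E12.5, E14, E15.5 and E17 and at birth (P0), with 2 libraries at each stage. By the labels the groups differ in age, and every lysate received RNAse-T1 & RNAse-A and no cycloheximide. Each library pools many brains of both sexes, more at the early stages than at the late ones, and the spread between replicates is therefore a spread between pools.

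During elongation eEF1A, bound to GTP, delivers each aminoacyl-tRNA to the ribosome, the eEF1B complex recharges eEF1A with GTP, and eEF2 moves the ribosome along by a codon. Phosphorylation of eEF2 by eEF2 kinase slows this last step, and eIF5A, the carrier of the modified lysine hypusine, helps peptide bonds form where the ribosome stalls. In mammals eEF1A comes in a pair of forms from separate genes. Eef1a1 is used by most cells, while Eef1a2 is the form of mature neurons and of skeletal and heart muscle. Many mRNAs of the translation machinery, elongation factors among them, begin with a 5′ terminal oligopyrimidine (TOP) tract, through which mTOR signalling controls their translation.

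Pyrimidine tracts near the start of transcription are part of the known control of some of these genes. The start windows of the 9 genes were therefore looked up in the RefSeq promoter table (GRCm38.p6). Of the 9 genes, 7 matched, some with several windows, and Eef1d and Eef1g did not. A run of at least 8 pyrimidines (C or T in any order) was searched on the transcribed strand within 50 bases on either side of the annotated start. The pair of eEF1A genes and Eef2 each held such a run, and 30 bases around the run nearest to the start are shown for these 3, the paralogues that move in opposite directions below and the translocase; the run is in capitals and the sequence reads 5′ to 3′.
Eef1a1: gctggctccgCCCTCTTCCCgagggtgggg
Eef1a2: ttttgcctgTTTTTCTCTCCTggtctgcgt
Eef2: gacgtcagcggTCTCTTCCgccgcagccgc
The Eef1a1 stretch lies on the minus strand at chr9:78481710-78481739, and its run of 10 pyrimidines starts at position -5 and crosses the annotated start. That of Eef1a2 lies on the minus strand at chr2:181157014-181157043, with a run of 12 that starts at position -19. The Eef2 stretch lies on the plus strand at chr10:81176634-81176663, with a run of 8 that starts at position 15. By these positions the Eef1a2 run ends before the annotated start and the Eef2 run begins after it. As annotated, neither run begins the mRNA. In Eef2k the run was found in 1 of 3 windows and in Eif5a in 1 of 6, and the single windows of Eef1b2 and Eif5a2 held none. Such runs are common: of 32851 windows in the table, 35.7% held one on the transcribed strand and 38.1% on the other strand. On the other strand 4 of the 7 matched genes held one, namely Eef1a1, Eef1b2, Eef2k and Eif5a. The percentages count windows and not genes, and a gene with several windows, such as Eif5a, had more chances to hold a run. The match is of letters only, and annotated starts can lie some bases from the start that is used.

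The libraries held from 7544404 counts (P0 replicate 1) to 36129988 (E14 replicate 2). The log2 ratio between the 2 libraries of a stage, taken over 4559 well-covered genes (mean count of 500 or more), had an SD of 0.13 to 0.22 at the embryonic stages and of 0.54 at P0. Counts are given below as CPM, counts per 1000000 of a library size scaled by TMM, a factor that holds the typical gene level across libraries. A change was called where the adjusted p was under 0.05 and the log2 change at least 0.32 in size, in limma-voom, fitted to all 10 libraries and adjusted by Benjamini-Hochberg over all genes tested; every adjusted p below comes from this fit unless another is named. Markers of the dorsal telencephalon such as Emx1 and Tbr1 were present in every library, as the label neocortex has it. The longer a coding sequence, the more footprints it gives, and no coding lengths were used, so that the levels of different genes are not compared.

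From E12.5 to P0, 2 of the 9 genes rose and 4 fell. With total counts in place of TMM, 4 were called higher and 1, Eef1d, lower. On that scale 6446 of all 13484 genes were called higher and 2506 lower. What follows is with TMM. The risers were Eef1a2, by 13.3-fold, and Eef2k, by 2.38-fold. Eef1d, Eef1a1, Eef1g and Eif5a fell, by 2.28-fold, 1.67-fold, 1.62-fold and 1.53-fold. Eef1b2, Eef2 and Eif5a2 did not pass the test. Among all genes tested in this comparison, 30.1% were called higher and 32% lower, so that 6 called among 9 is near the share of all genes. An F test across the 5 stages, which called 63.8% of all genes, called 7 of the 9, with Eef1b2 (adjusted p = 0.128) and Eif5a2 (adjusted p = 0.846) left out. Of the single steps, E14 to E15.5 held the most calls, with 2 genes higher and 2 lower, where 16.5% of all genes were called higher and 19.6% lower. The other steps each held 1 or 2 rises and no fall: Eef1a2 alone from E12.5 to E14 (0.497% of all genes higher, 0.141% lower), Eef1a2 alone from E15.5 to E17 (5.61% and 3.43%), and Eef1a2 and Eef2k from E17 to P0 (9.46% and 11.1%). Adjacent steps share the libraries of the stage between them.

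**Figure D1:**
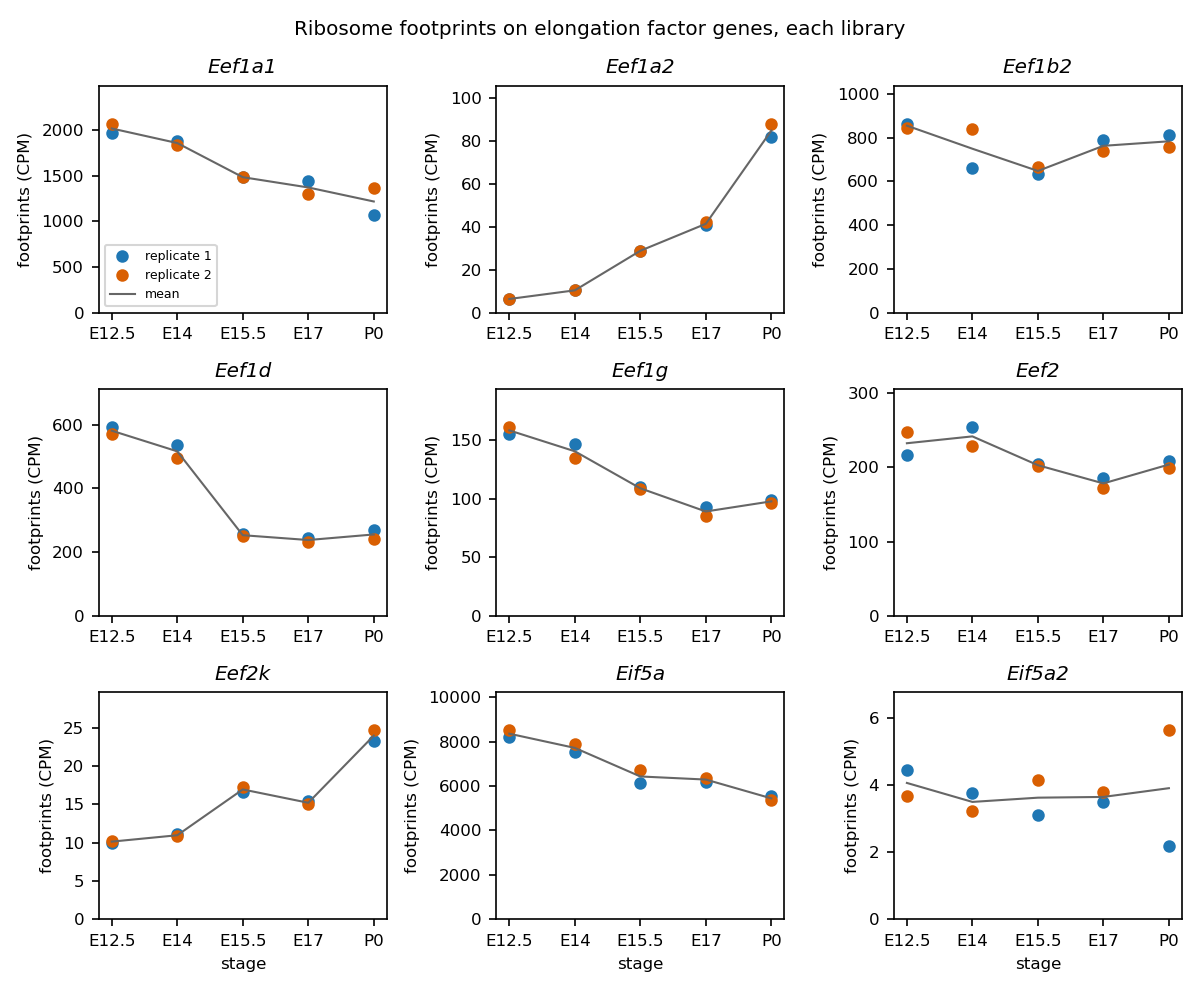
Footprints on each of the 9 genes in CPM (vertical axis, each panel with its own scale from 0) by stage (horizontal axis), with 1 point per library and a line through the stage means. Eef1a2 rises at each step, from about 6 to over 80 CPM, Eef2k has a higher level from E15.5 and again at P0, Eef1d drops between E14 and E15.5, and the 2 P0 libraries of Eif5a2 lie far apart.

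Eef1a2 was the only one of the 9 called at every step, and always upward, though 3 of these 4 calls were lost under some alternative. The E12.5 libraries held 6.44 and 6.28 CPM, from 117 and 168 counts. Both E14 libraries held 10.4 CPM, those of E15.5 held 28.7 and 28.9, those of E17 held 40.7 and 42.1, and the P0 libraries held 81.6 and 88.0 CPM. The replicates were close at every stage, and no stage overlapped with another. The fitted log2 change was 0.71 (SE 0.11) from E12.5 to E14, 1.47 (SE 0.095) to E15.5, 0.52 (SE 0.089) to E17 and 1.04 (SE 0.087) to P0, with adjusted p of 0.0423, 6.04e-05, 0.0154 and 0.000842. Over the whole course it was 3.74 (SE 0.10, adjusted p = 3.74e-07). The first of these calls was lost with a replicate block (adjusted p = 0.0966, with 2 genes higher and 2 lower in all). It was also lost without the low-count filter (0.0804, with 22 and 5) and in a fit of the 2 stages alone (0.0964, with 4 and 4). Fits without any one of the E12.5, E14, E15.5 or E17 libraries lost it too. The call from E15.5 to E17 was lost without any E15.5 or E17 library. At these steps such fits called few genes of the whole table or none. Over all alternatives the fitted changes of these 2 steps stayed between 0.69 and 0.77 and between 0.50 and 0.58.

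Eef1a1, the general form, went the other way. The E12.5 libraries held 1964 and 2067 CPM of it, those of E14 held 1881 and 1831, those of E15.5 held 1483 and 1482, those of E17 held 1438 and 1302, and the P0 libraries held 1073 and 1360 CPM. Both P0 libraries of Eef1a1 lay below both E12.5 libraries, but the P0 libraries differed from each other by more than the E17 and P0 means did. The log2 change from E12.5 to P0 was -0.74 (SE 0.12, adjusted p = 0.000908), and -0.21 and not called with total counts only (adjusted p = 0.119). No single step was called. The largest was E14 to E15.5, at -0.32 with a 95% interval of -0.61 to -0.04 and an adjusted p of 0.0721. It was called in 7 of 20 alternatives, among them the fit without both P0 libraries (adjusted p = 0.00571) and the DESeq2 Wald test (0.0258). The fits without P0 replicate 1 or without P0 replicate 2 also called it, each at -0.32. With total counts only the step was -0.03 and not called (adjusted p = 0.847).

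Set against each other within a library, the pair needs no scaling between libraries. How reads that match several genes were divided is not stated, and could still shift the balance of the pair. At E12.5 Eef1a2 had 117 and 168 counts beside 35706 and 55263 for Eef1a1. Of the counts of both genes, Eef1a2 made up 0.315% ± 0.017 (SD, n = 2) in the E12.5 libraries. This share was 0.557% ± 0.011 for E14, 1.91% ± 0.0070 for E15.5, 2.94% ± 0.27 for E17 and 6.57% ± 0.70 for P0. In the single libraries the share ran from 0.303% (95% exact binomial interval 0.259 to 0.352) in E12.5 replicate 2 to 7.07% (6.59 to 7.57) in P0 replicate 1. The ratio of Eef1a2 to Eef1a1 counts thus grew 22.2-fold from E12.5 to P0, or by 4.47 on the log2 scale. With 2 libraries against 2 an exact permutation test cannot go below p = 0.333, the value found here. An exact permutation test over all 5 stages, added after the data were seen, which asks whether stages differ and has 945 ways to pair the 10 libraries, gave p = 0.00106, the smallest it can give (adjusted over the 4 ratios computed, 0.00424).

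The 3 eEF1B subunits did not move together. Eef1b2 and Eef1d encode the subunits that exchange the nucleotide on eEF1A, and Eef1g encodes the scaffold subunit that binds them. Eef1d fell within a single step. The E12.5 libraries held 593 and 570 CPM and those of E14 held 537 and 496, whereas those of E15.5 held 256 and 251, those of E17 held 244 and 232, and the P0 libraries held 271 and 240.1. All 4 early libraries lay above all 6 later ones. The log2 change from E14 to E15.5 was -1.03 (SE 0.096, adjusted p = 0.000185), and the later steps, at -0.09 (95% interval -0.31 to 0.13) and 0.10 (-0.12 to 0.32), were not called.

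Eef1g fell more gradually and by less. Its levels in CPM were 156 and 161 in the E12.5 libraries, 147 and 134 in those of E14, 109.9 and 108 in those of E15.5, 92.9 and 85.4 in those of E17, and 98.98 and 96.6 in those of P0. The E14 to E15.5 step was called (log2 change -0.37, SE 0.090, adjusted p = 0.0144). With total counts only it was -0.07 and not called (adjusted p = 0.533). The call was also lost without E14 replicate 1 (-0.30), E15.5 replicate 1 (-0.38) or E15.5 replicate 2 (-0.35). The next step, at -0.29 (95% interval -0.50 to -0.08), had an adjusted p of 0.0887. From E12.5 to P0 the log2 change was -0.70 (SE 0.092, adjusted p = 0.000255), and -0.17 and not called with total counts only (adjusted p = 0.122).

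Eef1b2 had no called change at any step. It ranged from 631 CPM in E15.5 replicate 1 to 863 in E12.5 replicate 1, and at E14 its libraries, at 659 and 839 CPM, covered most of that range. The log2 change from E12.5 to P0 was -0.13 with a 95% interval of -0.41 to 0.15, which still holds changes past the threshold for a call. Of the summed counts of Eef1d and Eef1b2 in a library, Eef1d made up 40.5% ± 0.34 (SD, n = 2) in the E12.5 libraries. The share was 41.0% ± 5.5 for E14, 28.1% ± 0.96 for E15.5, 23.8% ± 0.17 for E17 and 24.6% ± 0.70 for P0. The ratio of Eef1d to Eef1b2 fell 2.09-fold from E12.5 to P0, a log2 change of -1.06; this pair was chosen after the values of both genes were seen, so the ratio is given without a test.

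**Figure D2:**
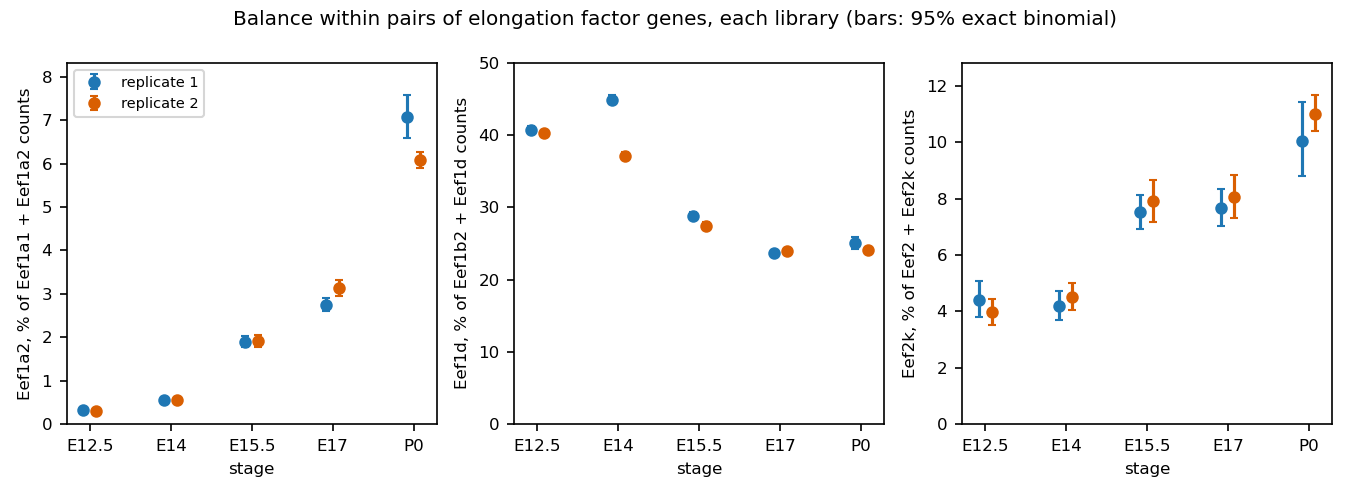
Share of counts held by the first gene of each pair, in percent (vertical axis, from 0), by stage (horizontal axis), with 1 point per library and 95% exact binomial intervals that cover counting error only. The share of Eef1a2 beside Eef1a1 climbs from about 0.3% to between 6% and 7%, that of Eef1d beside Eef1b2 drops after E14, and that of Eef2k beside Eef2 has a higher level from E15.5 and is highest at P0.

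Eef2, the translocase, stayed within a narrow range. The E12.5 libraries held 217 and 248 CPM, those of E14 held 255 and 229, those of E15.5 held 204 and 202, those of E17 held 185 and 172, and the P0 libraries held 208 and 199.7. The E12.5 and E14 libraries overlapped and all lay above the later ones. The F test found that Eef2 differed among the stages (adjusted p = 0.0285), but no pair of stages compared passed the test; E14 to E15.5 came nearest, at -0.25 with a 95% interval of -0.49 to -0.02 and an adjusted p of 0.0908. From E12.5 to P0 the log2 change was -0.19 (95% interval -0.43 to 0.05, adjusted p = 0.144).

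Eef2k, which phosphorylates eEF2 in response to calcium, rose in a pair of steps. Its levels in CPM, from between 182 and 1035 counts, were 10.01 and 10.25 in the E12.5 libraries, 11.1 and 10.8 in those of E14, 16.6 and 17.3 in those of E15.5, 15.4 and 15.0 in those of E17, and 23.3 and 24.7 in those of P0. The replicates were close throughout, and the rises were at E14 to E15.5 (log2 change 0.63, SE 0.095, adjusted p = 0.00152) and at E17 to P0 (0.66, SE 0.093, adjusted p = 0.00334). Over the whole course the log2 change was 1.248 (SE 0.098, adjusted p = 1.42e-05). Relative to the counts of its substrate in the same library, those of Eef2k grew 2.695-fold from E12.5 to P0, a log2 change of 1.43, again a ratio chosen after its values were seen and given without a test. In a fit of only the E17 and P0 libraries the last step of Eef2k (adjusted p = 0.11) and that of Eef1a2 (0.0936) were no longer called. That fit called 0 of all 13484 genes higher and 0 lower, so the loss is not particular to these genes.

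Eif5a fell over the whole course with no single step called. The E12.5 libraries held 8196 and 8509 CPM of it, those of E14 held 7524 and 7900, those of E15.5 held 6152 and 6699, those of E17 held 6197 and 6375, and the P0 libraries held 5524 and 5354 CPM. The log2 change from E12.5 to P0 was -0.62 (SE 0.091, adjusted p = 0.000475), and -0.09 and not called with total counts only (adjusted p = 0.434); both P0 libraries lay below all others. No step was called, with E14 to E15.5 at -0.26 (95% interval -0.47 to -0.05, adjusted p = 0.0534) and E17 to P0 at -0.21 (-0.42 to 0.0002, adjusted p = 0.14).

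Eif5a2, the paralogue of Eif5a, was at the edge of what these libraries can measure. The E12.5 libraries gave 81 and 98 counts, those of E14 gave 85 and 102, those of E15.5 gave 103 and 98, those of E17 gave 110 and 101, and P0 replicates 1 and 2 gave 20 and 236. In CPM these P0 values are 2.18 and 5.63, below and above all the embryonic libraries, which ran from 3.10 to 4.46. The log2 change from E12.5 to P0 was 0.13 with a 95% interval of -0.66 to 0.91. Without P0 replicate 1 it was 0.49 and called (adjusted p = 0.0423), and without P0 replicate 2 it was -0.85, so that its direction rests on which P0 library is kept. The ratio of Eif5a2 to Eif5a changed by 0.41 on the log2 scale (exact permutation test over the 5 stages, p = 0.849, adjusted 0.849).

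**Figure D3:**
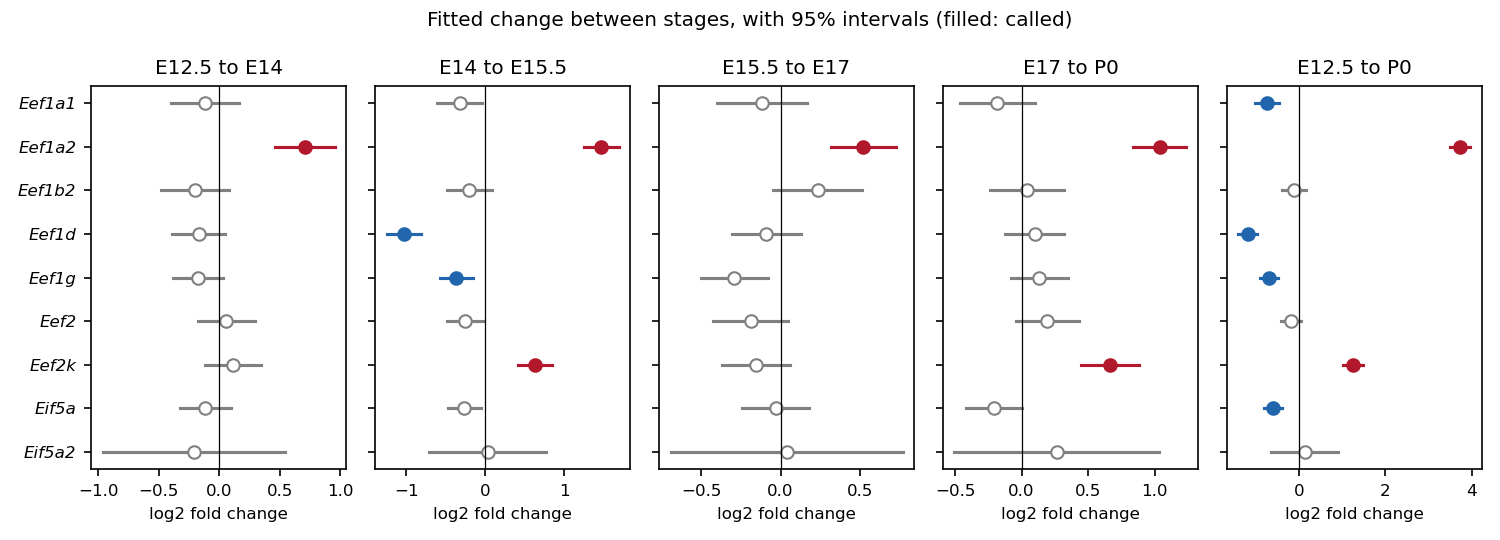
Fitted log2 fold changes (horizontal axis, a separate scale for each comparison) of the 9 genes (rows), with 95% intervals from limma-voom. Filled red points are called higher, filled blue points called lower and open grey points not called; with total counts only the signs of Eef1b2, Eef2 and Eif5a at E14 to E15.5, of Eif5a at E15.5 to E17 and of Eef1b2 and Eef2 at E12.5 to P0 turn. Eef1a2 is called higher in all 5 comparisons, and the interval of Eif5a2 spans 0 in each.

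How far a fall reaches depends on the scale on which it is read. Histone genes here are the 66 genes whose symbol begins with Hist, and any under other symbols stay with the rest. These 66 took 34.0% and 38.5% of all counts at E12.5 and 9.83% and 6.32% at P0. Other genes thus fill more of a late library. TMM discounts this, and with it the median of all genes moved by -0.01 on the log2 scale from E12.5 to P0. With total counts only, the median gene moved by 0.51, and by 0.29 from E14 to E15.5. On that scale, from E12.5 to P0, Eef1a2 (4.27), Eef2k (1.78) and Eef1d (-0.66) were called as before. Eef1a1, Eef1g and Eif5a were not called, as given above, and Eef1b2 (0.40, adjusted p = 0.0248) and Eef2 (0.34, adjusted p = 0.0121) were called higher. The scalings differ only by a factor for each library, so values relative to the median gene are nearly the same by construction, such as -0.73 for Eef1a1. Read that way, Eef1a1, Eef1g and Eif5a fell against the typical gene, while the change of their share of the library did not pass the test. Higher genes made up 48.5% of all genes called under TMM and 72.0% of those called under total counts.

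**Figure D4:**
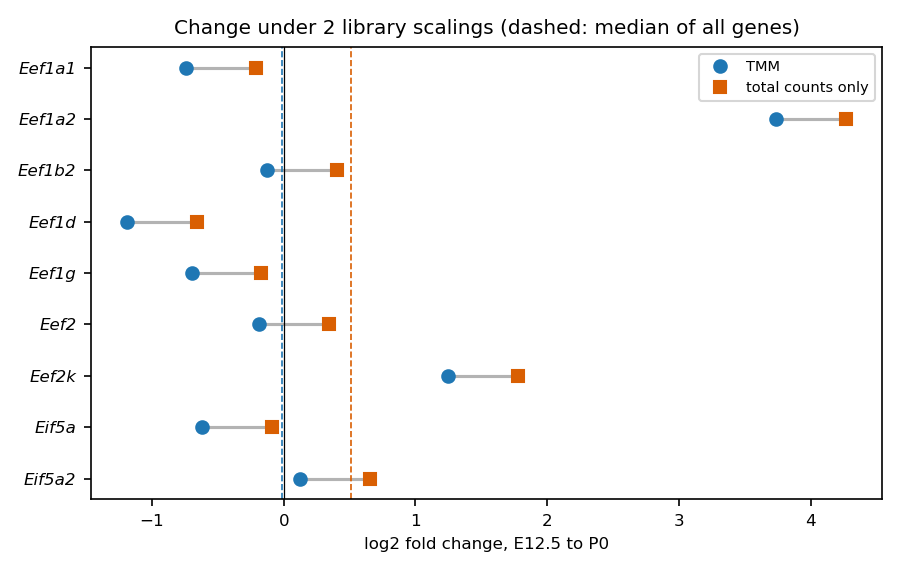
Fitted log2 fold change from E12.5 to P0 (horizontal axis) of the 9 genes (rows) with TMM scaling (blue circles) and with total counts only (orange squares); dashed lines mark the median of all genes under each, -0.01 and 0.51. Each gene moves by about the same distance between scalings; Eef1b2 and Eef2 cross 0, and Eef1a2, Eef2k and Eef1d keep their direction and their call.

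The 9 genes together held a nearly constant part of each library, 1.01% ± 0.013 (SD, n = 2) of all counts for E12.5, 0.970% ± 0.044 for E14, 0.970% ± 0.040 for E15.5, 0.992% ± 0.0085 for E17 and 0.970% ± 0.023 for P0. Of the counts outside histone genes they held 1.59% ± 0.059 for E12.5, 1.466% ± 0.030 for E14, 1.181% ± 0.033 for E15.5, 1.139% ± 0.0035 for E17 and 1.056% ± 0.053 for P0. Between 65.9% and 71.1% of these counts were from Eif5a, which therefore sets most of both series. This is a share of counts and not a level per length. How reads that match several genes were divided is not stated, so these shares are uncertain to that extent.

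Eef1a1, Eef1d, Eef1g and Eif5a were read beside other genes of the translation machinery. From E12.5 to P0, 69 of 79 cytosolic ribosomal protein genes were lower and 0 higher, with a median log2 change of -0.72. The median of all genes was -0.01 and that of the 9 elongation factor genes -0.19. With total counts only, 16 of the 79 were lower and 4 higher, where 2506 of all 13484 genes were lower and 6446 higher. The changes of Eef1a1 (-0.74), Eef1g (-0.70) and Eif5a (-0.62) lay near the median of that list and those of Eef1b2 (-0.13) and Eef2 (-0.19) nearer to 0. From E14 to E15.5, 45 of the 79 were lower, with a median of -0.42, and the change of Eef1d (-1.03) was more than 2 times as far from 0. With total counts only, 3 of the 79 were lower at this step, where 1653 of all 13484 genes were. Of 12 other genes with known TOP tracts, 10 were lower from E12.5 to P0 and 0 higher, with a median of -0.95 (5 lower and 0 higher with total counts only). Nap1l1, a histone chaperone, had the largest fall of these at -1.77 (SE 0.32), and Pabpc1, the cytosolic poly(A) binding protein, followed at -1.60 (SE 0.21). The difference between these lists and the elongation factors was not tested. Footprints alone were used, so changes in mRNA level and in translation per mRNA cannot be told apart in any of these genes.

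Lists of genes that act on or beside the elongation factors are read against the 30.1% of all genes called higher and 32% called lower from E12.5 to P0. With total counts only, 6446 of all 13484 genes were called higher and 2506 lower. Of 11 genes around the phosphorylation of eEF2 (its upstream regulators and the phosphatase), 4 were higher and 1 lower from E12.5 to P0, with a median of 0.32. With TMM this is a smaller share called than among all genes. With total counts only, 8 were higher and 0 lower, a somewhat larger share than among all genes. Prkaa2, a catalytic subunit of the energy sensor AMPK that activates eEF2 kinase, rose from 2.36 to 9.07 CPM (log2 change 1.99, SE 0.20). Rps6kb2, a ribosomal S6 kinase of the family that inhibits eEF2 kinase, fell from 12.3 to 8.32 CPM (-0.61, SE 0.17), a call lost with total counts only (-0.09). Genes of the same arm, named after their values were seen, did not follow it: Mtor was higher (log2 change 0.60, adjusted p = 0.0105) and Rps6kb1 was not called (0.09).

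Of 13 tested enzymes that modify elongation factors, 4 were higher and 5 lower from E12.5 to P0, with a median of -0.02 that turned to 0.49 with total counts only (6 higher and 2 lower); 9 of 13 is near the share of all genes called. The 4 enzymes named next kept their calls on both scales. The 2 largest rises belong to the pair of enzymes that make hypusine on eIF5A. Dhps, deoxyhypusine synthase, rose from 7.11 to 15.3 CPM (log2 change 1.06, SE 0.14), and Dohh, deoxyhypusine hydroxylase, from 29.2 to 60.7 CPM (0.99, SE 0.21). The 2 largest falls were of genes for making diphthamide, the modified histidine of eEF2. Dnajc24 fell from 23.4 to 8.70 CPM (-1.38, SE 0.17) and Dph6 from 75.3 to 29.6 CPM (-1.34, SE 0.091). The other diphthamide genes, named after their values were seen, were mixed: Dph3 was lower (-0.58, adjusted p = 0.00446), Dph7 was higher (0.70, adjusted p = 0.0414), and Dph1 (-0.02), Dph2 (-0.10) and Dph5 (0.08) were not called.

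Of 9 genes of termination, ribosome rescue and related GTPases, 2 were higher and 3 lower from E12.5 to P0, with a median of -0.11 that turned to 0.41 with total counts only (4 higher and 0 lower); 5 of 9 is also near the share of all genes called. Gtpbp2, a GTPase of ribosome rescue, rose by 0.80 on the log2 scale (SE 0.15) and Gspt2, one of a pair of genes for release factor eRF3, by 0.76 (SE 0.16). Its paralogue Gspt1 (-0.67, SE 0.19) and Etf1, the release factor eRF1 (-0.74, SE 0.10), fell, calls lost with total counts only. Of a list of 5 genes of mitochondrial translation, 4 were lower and 0 higher (median -0.53), or 1 and 1 with total counts only. Gfm2 at -0.97 (SE 0.16) and Guf1 at -0.74 (SE 0.23) were the farthest. The call of Guf1 was lost with total counts only (-0.22).

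**Figure D5:**
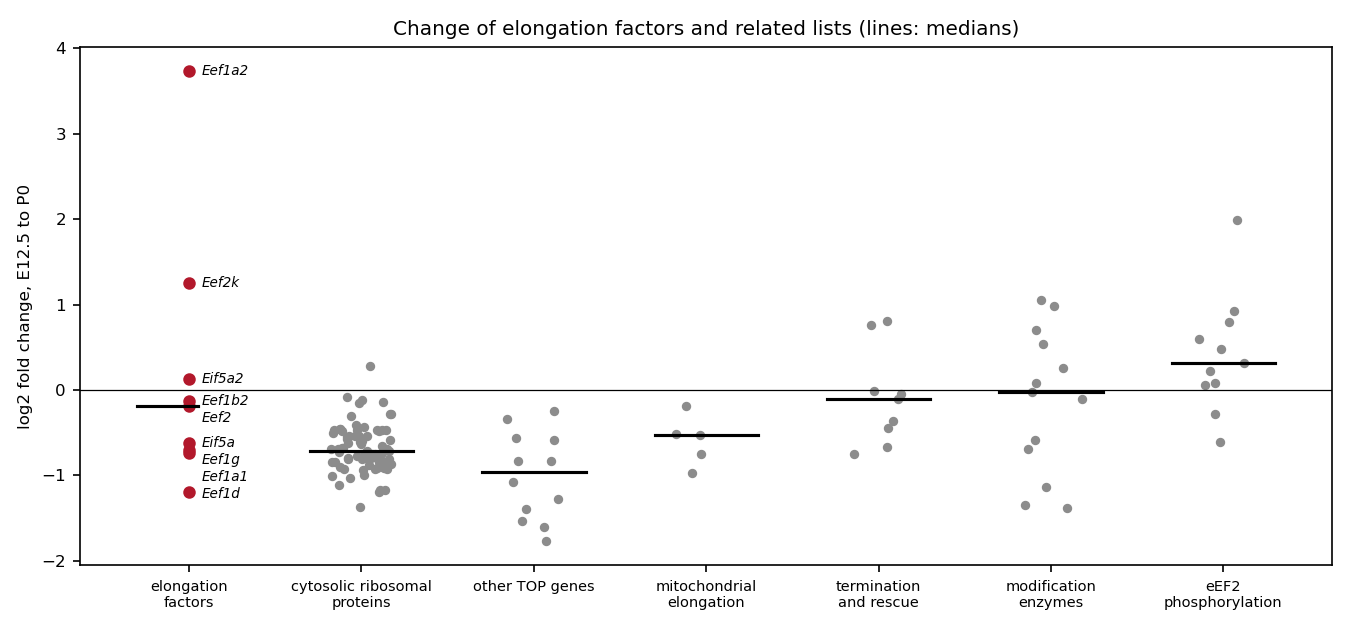
Fitted log2 fold change from E12.5 to P0 (vertical axis) of the 9 elongation factor genes (red, named) and of 6 lists of related genes (grey, 1 point per gene), with TMM scaling; black lines are medians. The ribosomal proteins centre on -0.72 and the other TOP genes on -0.95, while Eef1a2 and Eef2k stand above 1. With total counts only the median of all genes is 0.51 in place of -0.01, and Eef1b2 and Eef2 turn to higher.

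Genes with the most similar course were found by the correlation of log2 CPM over the 10 libraries, among 4552 genes whose mean count was 500 or more; the libraries share stages and scaling, so these r are descriptions. The nearest to Eef1a2 were Sncb (r = 0.998), which encodes β-synuclein, Camk2g (0.998), a calcium-dependent kinase, and Vamp2 (0.997), a synaptic vesicle protein. Those nearest to Eef2k were Atp6v1a (0.991) and Atp6v1b2 (0.987), subunits of the vacuolar proton pump, and Zcchc18 (0.986). Eef1d was nearest to Hbb-y (0.993), an embryonic haemoglobin chain, Tpi1 (0.992), a glycolytic enzyme, and Lgals1 (0.990), and Eef1g to Srsf3 and Slc25a5 (both 0.987) and Slbp (0.986), the histone mRNA binding protein. Eif5a was nearest to Prom1 (0.981), a progenitor surface protein, Lpar1 (0.979) and Rpl22l1 (0.979). For Eef2 these were Ckb (0.954), Pygb (0.953) and Eif3f (0.949), for Eif5a2 Eif4e (0.930), Dpm1 (0.923) and Dnajc7 (0.921), and for Eef1b2 Tmbim6, Cd81 and Nfe2l1, at no more than 0.870.

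The genes most like Eef1a1 were Rpl6 (0.991), a ribosomal protein gene, and 2 genes of unclear function, C330021F23Rik (0.990) and Gm5148 (0.989). The counts of these last 2 ran close to each other and in step with Eef1a1: in E12.5 replicate 1 they were 13725 and 13530 beside 35706 for Eef1a1, and in P0 replicate 1 they were 3662 and 3248 beside 9863. Eef1a1 has many processed pseudogenes, reads with several matches were kept at alignment, and how this table divides them among genes is not stated, so the level of Eef1a1 is uncertain to that extent. No gene had counts within 5% of those of any of the 9 genes in all libraries. Among the 9, Eef1a2 ran with Eef2k (r = 0.96) and against Eif5a (-0.984) and Eef1a1 (-0.95), and Eef1d ran with Eef1g (0.96).

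The tissue mix changed over the same stages, and in a bulk library more cells of a type and more footprints per cell cannot be told apart. Of 10 neuronal markers, 9 were higher from E14 to E15.5 (median log2 change 1.179), where Eef1a2 and Eef2k also rose. At the other rises of Eef1a2 the neuronal markers had 2 of 10 higher from E12.5 to E14 (median 0.49), 2 from E15.5 to E17 (0.05) and 3 from E17 to P0 (0.15), the last also a rise of Eef2k. Their summed level went from 2310 and 2348 CPM at E12.5 to 8122 and 9154 at P0. Of 10 progenitor markers, 8 were lower and 1 higher from E14 to E15.5, while their summed level was 2191 and 2268 CPM at E14 and 2163 and 2319 at E15.5. Markers of tissue around the neocortex also fell from E14 to E15.5, a step at which 2646 of all 13484 genes, Eef1d among them, were called lower. All 8 markers of meningeal fibroblasts were lower (summed 300.5 and 300.9 to 29.4 and 30.7 CPM). So were all 5 tested of 6 choroid plexus markers (1121 and 1127 to 11.1 and 13.5 CPM), with Kcnj13 at 0 in 4 of the 10 libraries. Of 8 tested of 9 red blood cell markers, 5 were lower (7886 and 8658 to 5495 and 5921 CPM). At the ends of the course the choroid plexus markers summed to between 278 and 331 CPM at E12.5, below their E14 level, and to between 7.99 and 14.4 CPM at P0. The meningeal markers went up to 55.0 and 61.7 CPM at E17. The red blood cell markers went from 5736 and 5742 CPM at E17 to 1113 and 1481 at P0. Of the single steps, Eef1d was called only at E14 to E15.5. Glial markers summed to 44.1 and 46.1 CPM at E12.5 and to 149 and 167 at P0, with 7 of 8 higher. Skeletal muscle, the other tissue known for Eef1a2, left little trace outside Acta1, an actin gene with near-identical relatives: Myl1, Myh3, Ttn, Ckm and Myog gave at most 17 counts in any library, and Myog 0 in 8 of 10, while Tnnt3 and Actn2 reached 105 and 50. Of the 3 muscle genes tested, 2 were higher from E12.5 to P0, and the list summed to 149 and 150.2 CPM at E12.5 and to 179 and 219 at P0. The part of these shifts in the changes of the elongation factors was not tested.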

How the data were processed

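Footprint counts per gene in 10 Ribo-seq libraries were analysed. The deposited values are whole-number counts, not scaled to depth. Per the study's methods, the authors trimmed adapters with cutadapt, collapsed duplicate reads before removing random bases from the read ends, discarded tRNA, rRNA and snoRNA reads with Bowtie 2 and aligned the rest with STAR to GENCODE M12, keeping reads that match several places. The submitters' processing notes name STAR 2.7.0. Whether DeepShape-prime and tximport, named in the methods, made this table is not stated. Reads that match several genes can shift the counts of genes with close copies. Gene symbols matched 22274 of 22373 identifiers.

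Counts were analysed in R 4.3.3 with edgeR 4.0.16 (TMM factors) and limma 3.58.1. The model was voom, which the study also used, fitted to all 10 libraries with a mean for each stage. A gene needed a sum of 32 footprints in 1 stage or more. Tests were two-sided and Benjamini-Hochberg adjusted over 13484 genes. The comparisons were the 4 steps between stages and E12.5 to P0. The members, lists and rules were chosen with earlier results of these data known. The text names all 9 genes; from each list of related genes the 2 largest rises and 2 largest falls called from E12.5 to P0, ribosomal proteins only as a list; and for each of the 9 genes the 3 most correlated others. 1 gene that this rule names is not reported here. The ratios of Eef1d to Eef1b2 and of Eef2k to Eef2, the permutation test over the 5 stages, and the pyrimidine search were added after the data were seen.

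Alternatives were total counts, DESeq2 size factors, edgeR's quasi-likelihood test, the DESeq2 Wald test (DESeq2 1.42.0), filters, sample quality weights, a replicate block, only the stages compared, and leaving out libraries. Between replicates, counts differed by more than sampling noise at every stage (chi-square per degree of freedom from 6.85 to 62.7). Simulated counts for E12.5 to P0 over 13484 genes changed 67 genes by 1.5-fold, 67 by 2-fold and 66 by 4-fold. The test found 11.9%, 62.7% and 98.5% of these, with 5 false calls among 13284 unchanged genes. Each simulated gene had the same spread at every stage, whereas the real P0 replicates differed most. The real comparison called 30.1% of genes higher and 32% lower, which makes its adjusted threshold less strict. The simulated rates therefore do not give the sensitivity of the real test. Binomial intervals cover counting error only.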

Additional observations from a re-analysis of the deposited data

How the results depend on the processing

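Over the alternatives, 828 of 882 member values kept their direction and their side of the threshold, 24 lost the call, 10 gained it and 20 turned. From E12.5 to P0, the calls of Eef1a2, Eef2k and Eef1d held under every alternative run. With total counts only, the values that turned were 0.095 for Eef1b2, 0.044 for Eef2 and 0.032 for Eif5a between E14 and E15.5, 0.031 for Eif5a between E15.5 and E17, and 0.40 for Eef1b2 and 0.34 for Eef2 from E12.5 to P0. Eif5a2 turned to -0.0033 from E14 to E15.5 with at least 10 counts asked of every library and to -0.019 from E12.5 to P0 with sample quality weights. The number of the 9 genes called from E12.5 to E14 was 0 without the low-count filter (22 genes higher and 5 lower in all). It was also 0 in a fit of the 2 stages alone (4 higher and 4 lower in all). A fit of the 2 stages alone likewise gave 0 from E17 to P0, with 0 higher and 0 lower in all. At an unadjusted p under 0.05 these fits had 1, 1 and 2 of the 9. Replicate numbers did not pair the libraries (correlations of deviations from -0.63 to 0.43, with 5 of 10 over 0.1). With a replicate block the count from E12.5 to E14 was 0 (Eef1a2, adjusted p = 0.0966), where 2 genes were higher and 2 lower in all. The other counts stayed at 4, 1, 2 and 6.

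Outside histone genes, the share of footprints in the 9 genes was 1.59, 1.466, 1.181, 1.139 and 1.056% from E12.5 to P0. Leaving out 1 library at a time gave 0 to 1 genes called for E12.5 to E14 and for E15.5 to E17. It moved the log2 change of Eef2 from E12.5 to E14 between -0.038 and 0.15, that of Eif5a from E15.5 to E17 between -0.092 and 0.024, that of Eef1b2 from E17 to P0 between -0.011 and 0.088, and those of Eif5a2 between -0.16 and 0.26 for E14 to E15.5, -0.19 and 0.22 for E15.5 to E17, -0.71 and 0.63 from E17 to P0 and -0.85 and 0.49 from E12.5 to P0. The change of the Eif5a2 to Eif5a ratio ran from -0.297 without P0 replicate 2 to its highest value, 1.120, without P0 replicate 1. Eef1a1 from E17 to P0 was called lower (-0.35, adjusted p = 0.0189) without P0 replicate 2. With both P0 libraries left out of the fit, an alternative chosen after seeing the data, 5 genes were called from E14 to E15.5. With 2 pools a stage and 20 counts of Eif5a2 in P0 replicate 1, small changes were often not detectable.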
